A study of Mus musculus with 6 samples.

Results

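The genes described here encode the proteins of the mitochondrial ribosome. They were taken as every gene whose symbol is Mrpl or Mrps followed by a number, measured at probe sets that the platform annotation gives to that symbol alone. A probe set is a group of short probes read together as 1 value, and some match more than 1 transcript or gene. The rule found 76 genes with 156 probe sets, among 18193 named genes and 45037 probe sets tested. By symbol, 47 genes with 104 probe sets belong to the large subunit and 29 genes with 52 probe sets to the small subunit. All 76 genes matched an entry of RefSeq (assembly GRCm38.p6), where 78 protein-coding genes follow this naming pattern, and Mrpl30 and Mrpl53 had no probe set that named them alone.

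Cortex RNA of mice with the HtrA2 wild type genotype was compared with that of HtrA2 knockout littermates at postnatal day 29, with 3 arrays of each genotype. HtrA2 is a protease that resides between the mitochondrial membranes. The deletion's construct, the strain and the sex of the mice are not stated in the labels. The labels do not say that the arrays came from separate animals, although Y-linked levels given below place more than 1 animal in each genotype. The p-values therefore reflect only how these 6 samples vary, which may be partly technical.

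Mitochondria translate a small set of messages encoded by their own DNA, all of them for subunits of the respiratory chain and ATP synthase. The ribosome that does this has RNAs from the mitochondrial genome, while all of its proteins are made from nuclear genes in the cytosol and imported. Many of these proteins descend from bacterial ribosomal proteins, and the others were added during the evolution of mitochondria. Neurons rely heavily on oxidative phosphorylation, and cells of every type in the cortex carry this machinery.

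All values are log2 levels from RMA, fold changes are knockout minus wild type, and errors are standard errors of the limma fit unless called SD. A probe set was called changed at a Benjamini-Hochberg adjusted p under 0.05 over all tested probe sets. The targeted gene was read by 2 probe sets that moved in opposite directions. At the first, Htra2 lay at 8.89, 8.86 and 9.02 on the wild type arrays and 6.42, 7.08 and 6.45 on the knockout arrays, a change of -2.27 ± 0.17 (adjusted p = 0.00227). At the second it lay at 8.23, 8.12 and 8.28 against 9.35, 9.35 and 9.27, a rise of 1.11 ± 0.08 (adjusted p = 0.00169). The labels do not say which of them, if either, lies in the deleted part. Knockout replicate 2 stood apart, with an upper quartile of 8.544 against 8.62 to 8.648 on the other 5 arrays and an estimated array weight of 0.25 against 0.889 to 2.62. Wild type replicate 1 and knockout replicate 3 had a mean Y-linked level of 3.889 and 3.931, against 5.899 to 6.002 on the other arrays. Each genotype thus had low and high Y-linked levels, so its arrays did not all come from 1 animal. Markers of neurons, taken as a check of the tissue, had wild type means between 9.7 and 13.9. The summed level of the 12 neuron markers was 143.3 to 143.7 in wild type and 140.2 to 141.3 in knockout. It was 99.19 to 100.3 against 96.63 to 97.81 for 9 oligodendrocyte markers, and 70.71 to 72.5 against 68.7 to 69.32 for 8 microglia markers. For 9 astrocyte markers the ranges overlapped, with 1 member called higher (Gfap) and 2 lower (Aqp4 and S100b). For 7 meningeal fibroblast markers the sum was 61.02 to 63.2 against 62.97 to 66.25. Endothelial, blood and choroid plexus markers spanned 40.5 to 41.01, 16.79 to 16.98 and 26.18 to 33.16 in wild type against 41.07 to 41.22, 15.02 to 16.26 and 25.04 to 26 in knockout. The high choroid plexus value came from wild type replicate 2. Its mean deviation from the wild type mean was 1.08, against -0.67 and -0.41 on wild type replicates 1 and 3 and -0.95 to -0.71 on the knockout arrays. Among these lists 3 neuron markers (Nefm, Nefh and Neurod6), 1 oligodendrocyte marker (Olig2), 3 microglia markers (P2ry12, Tmem119 and Itgam) and 1 blood marker (Alas2) were called lower. The blood markers Hba-a1 and Slc4a1 were dim, with wild type means of 4.3 and 5.0 beside a lower quartile of 4.801 to 4.821 on the wild type arrays. In bulk tissue fewer cells of a type and less RNA per cell cannot be told apart. The part of these shifts in the results below was not tested.

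In the knockout cortex 6 genes of the mitochondrial ribosome had a called probe set, 3 of each subunit. Mrpl2, Mrpl23, Mrps10 and Mrps18b rose by 1.33 to 1.45-fold, and 1 probe set each of Mrps14 and Mrpl35 fell by a similar factor. The brightest probe sets of Mrps14 and Mrpl35 did not pass. In all, 4 of the 156 member probe sets were called higher and 2 lower, or 3.85%, beside 1.77% of all probe sets (0.884% higher and 0.884% lower). Counted by gene, 6 of 76 (7.89%) had a called probe set, against 3.3% of all genes. The members are bright, with 83.3% of their probe sets above the median level of the series. Among the 130 bright member probe sets 5 were called, which is 3.85% beside 3.14% for bright probe sets of the whole series, a share near the background. The count changed when single arrays were left out: limma gave 0 calls without wild type replicate 1, 2 or 3 or without knockout replicate 3, with 33 to 38 member probe sets at an unadjusted p under 0.05. It gave 4 calls without knockout replicate 1 and 18 without knockout replicate 2. Calls over the whole series moved as well, from 796 to between 65 and 107 in the omissions that left 0 member calls, to 377 without knockout replicate 1 and to 3037 without knockout replicate 2. With both replicates numbered 2 left out, 1 call remained, that of Mrps10. Centring each array on its median left 4 higher and 1 lower.

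Mrpl2 and Mrpl23 are large subunit proteins with bacterial counterparts. Mrpl2 sits close to the catalytic centre where peptide bonds form, and Mrpl23 lies at the mouth of the tunnel through which the new chain leaves. The level of Mrpl2 was 10.14, 10.22 and 10.14 on the wild type arrays and 10.67, 10.67 and 10.70 on the knockout arrays. It rose by 0.52 ± 0.07 (adjusted p = 0.0167), and the knockout arrays all lay above every wild type array. Mrpl23 was measured at 10.15, 10.03 and 10.03 in wild type and at 10.45, 10.51 and 10.48 in knockout. Its rise was 0.41 ± 0.07 (adjusted p = 0.0376), with no overlap between the genotypes. RefSeq lists a pseudogene of Mrpl23, so its value may include signal from a near copy. Without any 1 of the wild type arrays, or without knockout replicate 3, the call of Mrpl2 was lost, with fold changes of 0.50 to 0.54 over all 6 omissions. Mrpl23 kept its call in 1 of the 6 omissions, with fold changes of 0.39 to 0.45, and lost it when the Y-linked level entered the fit.

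Mrps10 and Mrps18b belong to the small subunit. Mrps10 is a protein of the subunit's head, and Mrps18b is 1 of 3 mammalian members of the bacterial S18 family. Mrps10 read 9.08, 8.99 and 9.07 in wild type and 9.64, 9.46 and 9.66 in knockout. This rise of 0.54 ± 0.08 (adjusted p = 0.0248) had the highest fold change of any member at its brightest probe set, meaning the probe set of highest average level. A second, dim probe set of Mrps10 gave 0.10 ± 0.10 (adjusted p = 0.678). Mrps18b read 9.30, 9.31 and 9.31 in wild type, an SD of 0.0075, and 9.80, 9.74 and 9.78 in knockout. It rose by 0.47 ± 0.07 (adjusted p = 0.0211) and its genotypes were separated on every array. The related Mrps18a and Mrps18c did not pass, at 0.10 ± 0.07 (adjusted p = 0.549) and 0.19 ± 0.09 (adjusted p = 0.334). Of the 6 single omissions, 1 left the call of Mrps10 and 1 that of Mrps18b in place, with fold changes of 0.50 to 0.60 and 0.45 to 0.48.

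Both falls came from a probe set that was not the brightest of its gene. Mrps14, a further protein of the small subunit's head, fell at a dim probe set from 6.32, 6.35 and 6.48 in wild type to 6.00, 5.75 and 5.82 in knockout. The change was -0.53 ± 0.09 (adjusted p = 0.0355), and the knockout arrays all lay below the wild type arrays. The brightest probe set of Mrps14 gave 0.04 ± 0.07 (adjusted p = 0.819), with levels of 11.25, 11.18 and 11.21 against 11.31, 11.24 and 11.23. Another gave -0.30 ± 0.08 (adjusted p = 0.0967). Mrpl35, counterpart of bacterial L35 in the large subunit, fell at 1 probe set from 9.08, 8.96 and 9.06 to 8.68, 8.54 and 8.36, a change of -0.51 ± 0.10 (adjusted p = 0.0482). Its brightest probe set stayed between 10.03 and 10.14 on all 6 arrays, with a difference of 0.0033 ± 0.07 (adjusted p = 0.989), and another gave -0.32 ± 0.10 (adjusted p = 0.149). The transcripts that the disagreeing probe sets read are not named in the files. The call of Mrps14 was kept in 2 of the 6 omissions and lost with the Y-linked covariate, with fold changes of -0.60 to -0.48 over the omissions and -0.53 with the covariate. That of Mrpl35 was kept in 1 of 6, with fold changes of -0.59 to -0.42. It was lost with the covariate at -0.51, and on median centring at -0.50 (adjusted p = 0.0546).

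**Figure D1:**
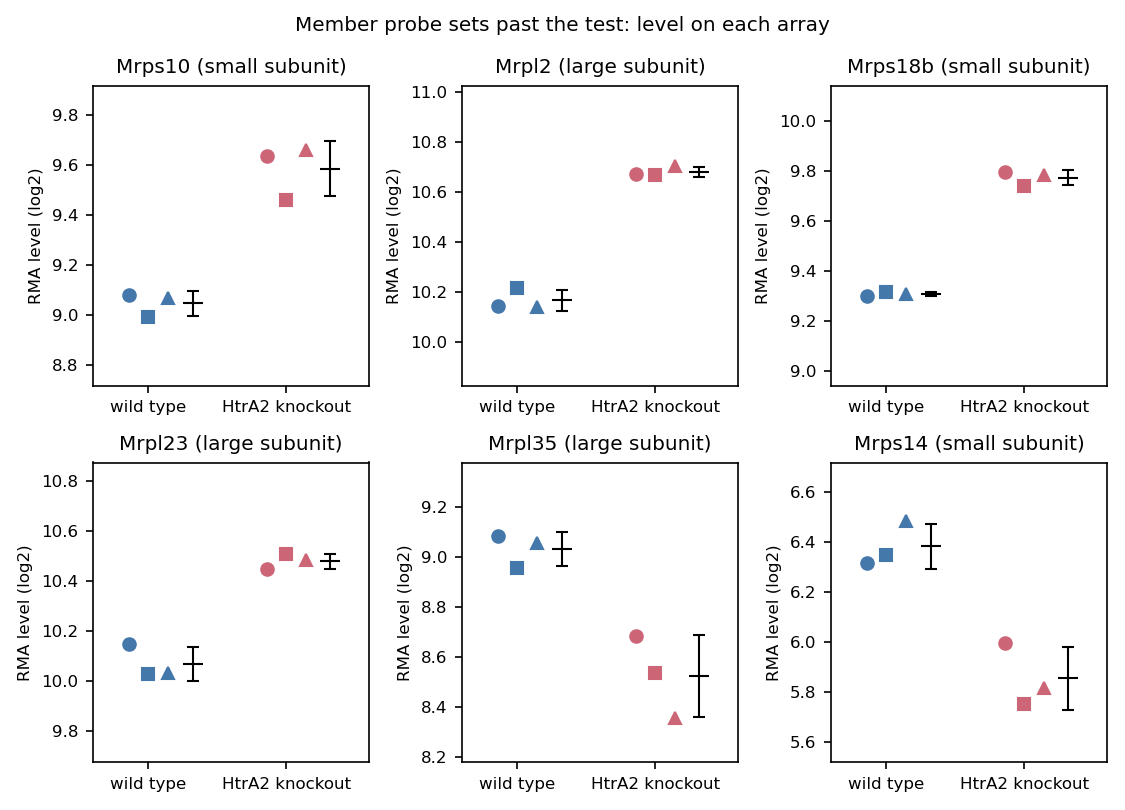
RMA level (log2, vertical axis) of the 6 called member probe sets on each wild type (blue) and HtrA2 knockout (red) array, with circles, squares and triangles for replicates 1, 2 and 3 and bars for the mean ± SD of 3 arrays. In each panel the genotypes do not overlap, and the change runs from -0.53 for Mrps14 to 0.54 for Mrps10.

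The promoters of these 6 genes are shown because each had a called probe set in the same comparison. Each window covers 250 bases before and 50 bases after an annotated transcription start, 5′ to 3′ on the gene's strand, from RefSeq on GRCm38.p6. Capitals mark a match, on either strand, to any of the 7 motifs searched and spelled out further on.
Mrpl2 (chr17:46645971-46646270, plus strand, the first of 3 windows): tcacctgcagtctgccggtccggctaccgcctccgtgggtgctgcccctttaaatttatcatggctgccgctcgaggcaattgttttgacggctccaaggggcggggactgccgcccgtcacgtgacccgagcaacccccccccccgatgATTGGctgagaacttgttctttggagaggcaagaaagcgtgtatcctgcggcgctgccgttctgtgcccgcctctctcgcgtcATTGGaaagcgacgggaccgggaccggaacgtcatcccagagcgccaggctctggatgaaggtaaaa
Mrpl23 (chr7:142532782-142533081, plus strand): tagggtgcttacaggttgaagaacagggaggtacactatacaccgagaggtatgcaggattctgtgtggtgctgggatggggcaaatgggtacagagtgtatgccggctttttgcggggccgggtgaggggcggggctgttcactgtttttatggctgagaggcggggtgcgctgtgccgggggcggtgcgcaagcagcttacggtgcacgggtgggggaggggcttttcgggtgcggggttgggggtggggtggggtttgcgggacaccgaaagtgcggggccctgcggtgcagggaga
Mrps10 (chr17:47368947-47369246, plus strand): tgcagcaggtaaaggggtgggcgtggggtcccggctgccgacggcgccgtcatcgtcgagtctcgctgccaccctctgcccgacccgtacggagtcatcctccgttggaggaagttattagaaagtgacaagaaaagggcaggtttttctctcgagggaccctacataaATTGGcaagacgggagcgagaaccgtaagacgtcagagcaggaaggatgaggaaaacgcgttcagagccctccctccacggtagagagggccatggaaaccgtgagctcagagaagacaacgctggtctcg
Mrps18b (chr17:35916391-35916690, minus strand): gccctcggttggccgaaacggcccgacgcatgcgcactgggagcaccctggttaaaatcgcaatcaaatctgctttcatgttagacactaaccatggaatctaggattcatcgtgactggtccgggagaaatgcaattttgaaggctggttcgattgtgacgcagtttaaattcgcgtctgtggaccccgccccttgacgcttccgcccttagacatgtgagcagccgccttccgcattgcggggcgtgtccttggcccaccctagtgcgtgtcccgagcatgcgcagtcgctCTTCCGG
Mrps14 (chr1:160194965-160195264, plus strand): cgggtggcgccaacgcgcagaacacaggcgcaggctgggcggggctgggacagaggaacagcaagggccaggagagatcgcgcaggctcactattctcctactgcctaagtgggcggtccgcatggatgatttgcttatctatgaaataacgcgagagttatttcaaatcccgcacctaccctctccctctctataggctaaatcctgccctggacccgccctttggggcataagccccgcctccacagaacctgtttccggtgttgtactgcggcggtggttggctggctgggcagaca
Mrpl35 (chr6:71823735-71824034, minus strand): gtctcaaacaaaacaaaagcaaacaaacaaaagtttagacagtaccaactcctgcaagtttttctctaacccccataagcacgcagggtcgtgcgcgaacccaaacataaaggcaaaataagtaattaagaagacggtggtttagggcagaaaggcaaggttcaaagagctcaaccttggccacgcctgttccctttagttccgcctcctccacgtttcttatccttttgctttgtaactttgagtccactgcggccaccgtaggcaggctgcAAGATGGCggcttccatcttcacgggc
The capitals in Mrpl2 are 2 CCAAT boxes read on the opposite strand, and Mrps10 has 1. The capitals that end the Mrps18b window are an ETS core on the opposite strand, starting 43 bases past the start. In Mrpl35 they are a YY1 match that starts 23 bases past the start. The windows of Mrpl23 and Mrps14 held no match to the 7 motifs.

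Across the whole family the shift was small and mostly upward. With each gene read at its brightest probe set, 62 of the 76 members had a fold change above 0 (81.6%), beside 54.9% of all genes. Their median was 0.12 with quartiles of 0.03 and 0.18, beside a median of 0.018 over all genes. The median level was 9.93 for the members and 7.71 over all genes, so this background was not matched for brightness. For 63 members the difference was under 0.25 in size. The range ran from -0.40 for Mrpl36 to 0.54 for Mrps10. Over all 156 probe sets, the knockout arrays lay above every wild type array at 55 (35.3%) and below every one at 22 (14.1%). In the whole series 11.6% of probe sets lay above and 11.6% below. Together 49.4% of member probe sets had genotypes that did not overlap, beside 23.2% in the series. Among bright probe sets the shares were 53.1% of the members' and 34.3% of the series'. These are descriptions of 6 arrays, since genes of a family are not independent replicates.

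Each knockout array carried the upward shift. The median deviation of the 76 genes from the wild type mean was 0.10, 0.07 and 0.12 on knockout replicates 1, 2 and 3, and between -0.015 and 0.022 on the wild type arrays. Over all genes the same medians lay between -0.010 and 0.023. On knockout replicate 1, 54 of the 76 genes were above all 3 wild type arrays and 12 were below all of them. The counts were 45 and 17 on knockout replicate 2, and 52 and 10 on knockout replicate 3. Knockout replicate 2, the array that stood apart, thus had the smallest shift of the 3.

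The medians of the large and the small subunit lay close together. The median of the 47 large subunit genes was 0.12, with 40 above 0 (85.1%), and that of the 29 small subunit genes was 0.099, with 22 above 0 (75.9%). The difference of the medians, large minus small, was 0.022. On the knockout arrays it was -0.0063, 0.030 and 0.033 for replicates 1 to 3, and on the wild type arrays between -0.0055 and 0.0048. The sign thus differed among the knockout arrays. It also turned to -0.0023 with both replicates numbered 2 left out and to -0.017 when each gene was read as the mean of its probe sets. Called probe sets were 2 higher and 1 lower in each subunit, which is 2.88% of the large and 5.77% of the small. In the whole series 1.77% of probe sets and 3.14% of bright ones were called. Small subunit members were more spread: their median size of change was 0.17 against 0.12, and 20 of 29 lay within 0.25 of 0 against 43 of 47. Groups did not overlap at 36 higher and 10 lower probe sets of the large subunit (44.2%) and at 19 higher and 12 lower of the small (59.6%). The shares in the series were 23.2% of all probe sets and 34.3% of bright ones. None of these differences between the subunits was tested, because members are not replicates of a genotype.

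A pair of genes carry a small subunit name although their proteins sit in the mammalian large subunit, Mrps30 (mL65) and Mrps18a (mL66). Mrps30 read 9.24, 9.24 and 9.15 in wild type and 9.52, 9.49 and 9.56 in knockout. Its difference of 0.31 ± 0.07 did not pass (adjusted p = 0.0755), although no knockout array overlapped wild type. Mrps18a read 10.26, 10.23 and 10.11 against 10.31, 10.28 and 10.32. Counting both in the large subunit left its median at 0.12, lowered the small subunit's to 0.056 and widened the difference to 0.065. One member, Mrps36, is named as a ribosomal protein but is also known as a component of the α-ketoglutarate dehydrogenase complex. It read 9.90, 9.79 and 9.83 against 9.59, 9.67 and 9.61, a difference of -0.22 ± 0.07 (adjusted p = 0.172).

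**Figure D2:**
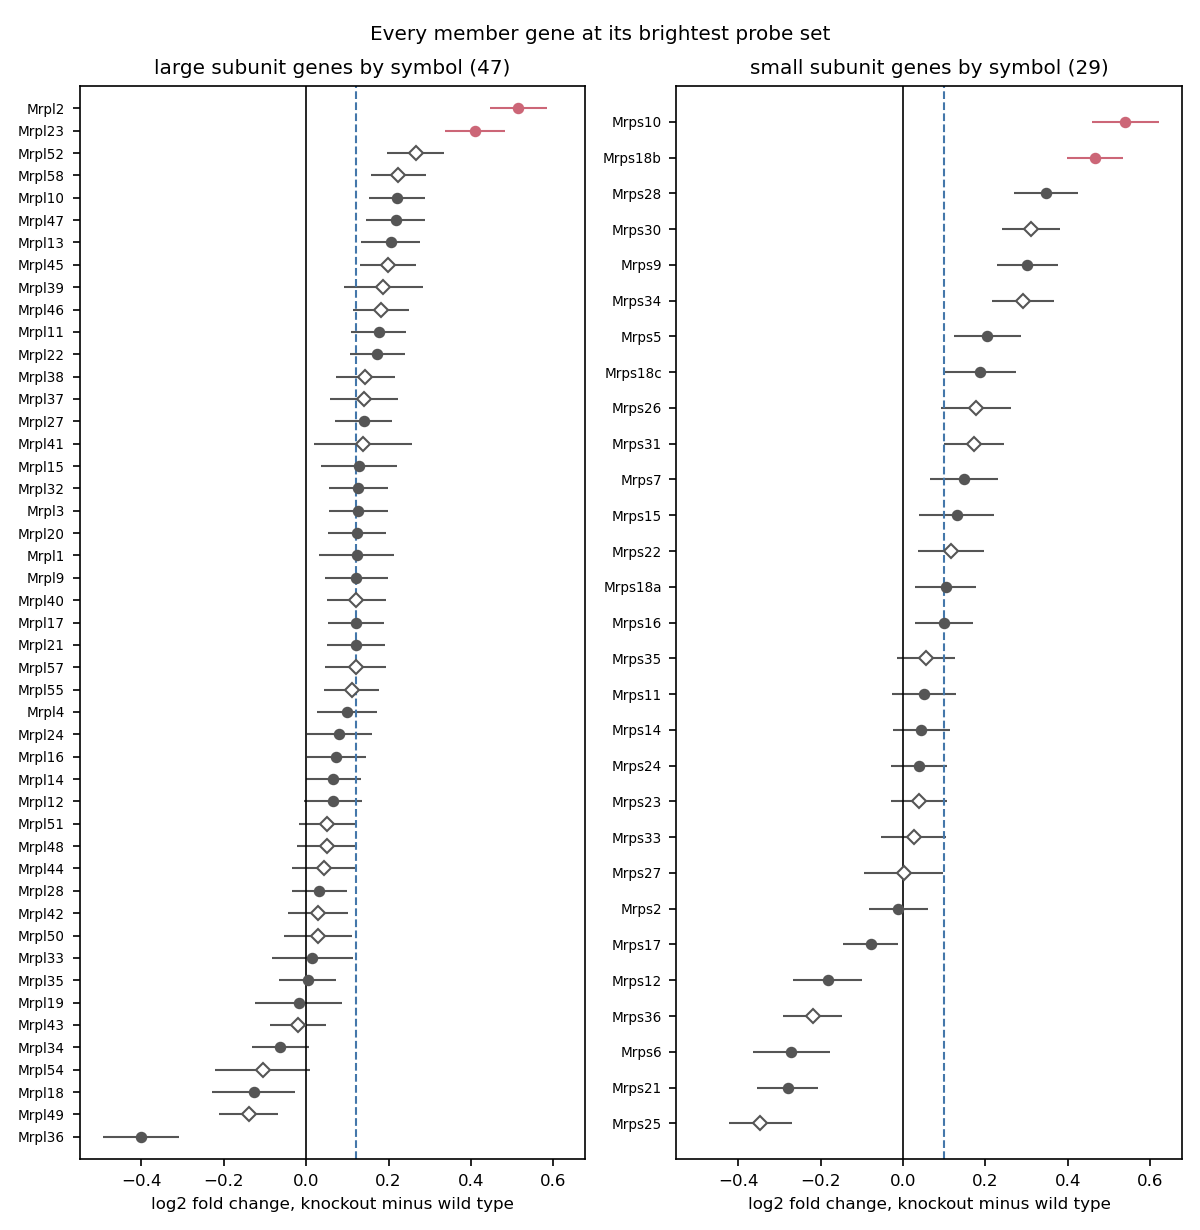
Log2 fold change, knockout minus wild type (horizontal axis), of each of the 76 member genes at its brightest probe set, with bars for ± 1 standard error of the limma fit on 3 arrays per genotype. Filled circles are members of bacterial ribosomal protein families, open diamonds the mitochondria-specific ones, red the called genes, and the dashed line the subunit's median (0.12 for large, 0.099 for small). Most points of both panels lie between 0 and 0.25.

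By origin, 46 members have a bacterial counterpart and 30 are specific to mitochondria. The 6 called genes belong to the first class, 13% of its genes beside 3.3% of all genes, a background not matched for brightness. Of the class's probe sets 81.8% lie above the median level of the series. By probe set its called share was 6.06%, beside 1.77% of all and 3.14% of bright probe sets in the series. In the mitochondria-specific class limma called 0 of 57 probe sets, with 17 at an unadjusted p under 0.05. Since 1.77% of all probe sets were called, a count of 0 among 57 says little. The medians were 0.12 and 0.11. In the class with bacterial counterparts 37 of 46 genes lay above 0, and in the other class 25 of 30. The difference between the classes was not tested.

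Further members of the large subunit, named for the smallest p in each direction, did not pass. Mrpl52, a mitochondria-specific protein, was above wild type at each of its 4 probe sets, by 0.38 ± 0.07 (adjusted p = 0.0503), 0.41 ± 0.09 (adjusted p = 0.0643), 0.27 ± 0.07 (adjusted p = 0.106) and 0.09 ± 0.09. At the first of these the levels were 9.40, 9.33 and 9.48 in wild type and 9.82, 9.74 and 9.80 in knockout, with no overlap. Mrpl39 gave 0.29 ± 0.08 at the dimmer of its 2 probe sets (adjusted p = 0.105) and 0.19 ± 0.10 at its brightest (adjusted p = 0.38). Mrpl58 gave 0.22 ± 0.07 at its brightest (adjusted p = 0.141). Mrpl58 is the peptidyl-tRNA hydrolase that frees stalled ribosomes. Mrpl17 gave 0.55 ± 0.14 at a dim probe set (adjusted p = 0.107) and 0.12 ± 0.07 at its brightest. Among members with a probe set below wild type, Mrpl36 read 8.99, 8.87 and 8.95 against 8.69, 8.39 and 8.52, a difference of -0.40 ± 0.09 (adjusted p = 0.079). It had 1 probe set, and its genotypes did not overlap. Mrpl48 gave -0.27 ± 0.08 (adjusted p = 0.128), Mrpl51 -0.24 ± 0.09 (adjusted p = 0.221), Mrpl57 -0.25 ± 0.11 (adjusted p = 0.282) and Mrpl19 -0.19 ± 0.07 (adjusted p = 0.24), each at a probe set that was not its gene's brightest. At the brightest, Mrpl48 gave 0.05 ± 0.07, Mrpl51 0.05 ± 0.07, Mrpl57 0.12 ± 0.07 and Mrpl19 -0.018 ± 0.11.

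In the small subunit, Mrps25 was below wild type at each of its 3 probe sets, which gave -0.57 ± 0.11 (adjusted p = 0.0536), -0.35 ± 0.08 (adjusted p = 0.0704) and -0.17 ± 0.07 (adjusted p = 0.298). At the brightest, the levels were 9.67, 9.76 and 9.69 in wild type and 9.46, 9.32 and 9.31 in knockout, and at all 3 the genotypes were separate. Mrps25 is a mitochondria-specific small subunit protein. Mrps28, Mrps9 and Mrps34 were higher by 0.35 ± 0.08 (adjusted p = 0.0742), 0.30 ± 0.07 (adjusted p = 0.0887) and 0.29 ± 0.08 (adjusted p = 0.101). For each of the 3 every knockout array lay above every wild type array. Mrps26 gave 0.38 ± 0.11 at the dimmer of its 2 probe sets (adjusted p = 0.132) and 0.18 ± 0.08 at the brightest (adjusted p = 0.343). Mrps11 gave -0.28 ± 0.07 at a dim probe set (adjusted p = 0.0976) and 0.05 ± 0.08 at its brightest. Mrps6, counterpart of bacterial S6, gave -0.27 ± 0.09 (adjusted p = 0.194). None of the members in this paragraph passed the test with all 6 arrays.

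Probe sets of the same gene often disagreed. A single probe set read 34 members, while 42 had several, up to 8 for Mrpl15. In 22 of the 42 all probe sets had the same sign, and in 20 they split. In 12 of the split genes at least 1 probe set had an unadjusted p under 0.05. These 12 were Mrpl13, Mrpl15, Mrpl17, Mrpl19, Mrpl35, Mrpl47, Mrpl48, Mrpl51, Mrpl57, Mrps11, Mrps14 and Mrps21. Mrps21 gave -0.28 ± 0.07 at its brightest probe set (adjusted p = 0.108) and 0.28 ± 0.10 at a dim one (adjusted p = 0.217). Mrpl13 ranged from -0.18 to 0.20 and Mrpl47 from -0.014 to 0.22. The 8 probe sets of Mrpl15 ranged from -0.07 to 0.80. The highest of these, the largest fold of any member probe set at 1.74, read 6.70, 6.53 and 6.53 in wild type and 7.13, 6.97 and 8.06 in knockout. It did not pass (adjusted p = 0.157), and knockout replicate 3 lay well above the other knockout arrays. The probe set of Mrpl15 with the smallest p gave 0.32 ± 0.08 (adjusted p = 0.104).

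The upward shift was seen at the brightest and at the other probe sets. Of the 76 brightest, 62 were above 0 and 4 were called, all higher, beside 2.44% called among the brightest probe sets of all genes. Of the other 80, 48 were above 0 (60%), with a median of 0.07, and 2 were called, both lower. Over the series, the 16752 probe sets that were not the brightest of their gene had a median of -0.015 and 45.9% above 0, with 95 called higher and 173 lower. All knockout arrays lay above wild type at 20 of the 80, beside 1552 of the 16752. They all lay below wild type at 14 of the 80, beside 2186 of the 16752. Lower values at the probe sets that were not the brightest were thus also seen over the series, and the members' medians lay above the series' at both kinds.

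**Figure D3:**
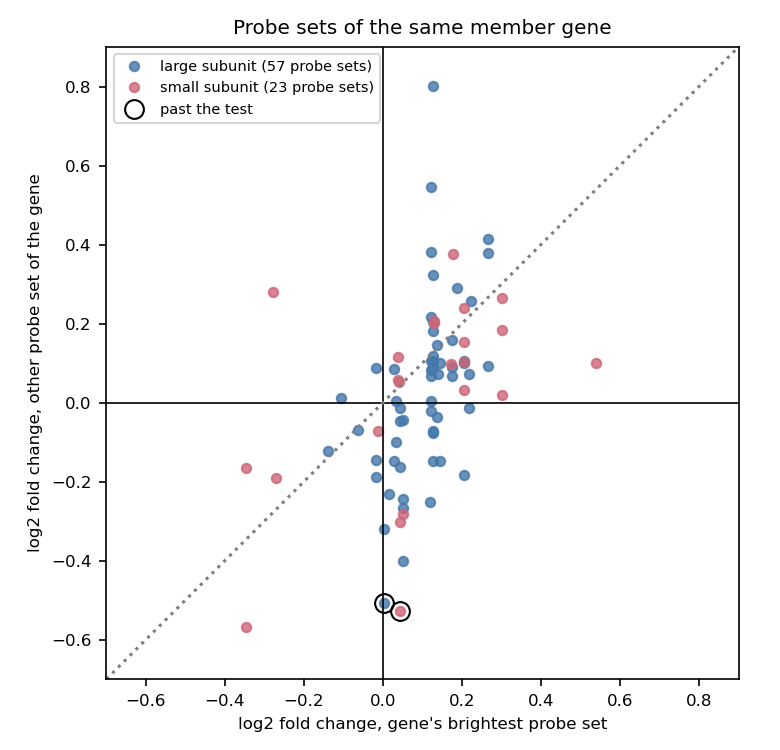
Log2 fold change of each of the 80 other probe sets (vertical axis) against that of the brightest probe set of the same gene (horizontal axis), for 57 large subunit (blue) and 23 small subunit (red) probe sets, with called ones ringed and a dotted line of equality. The 2 ringed points, of Mrpl35 and Mrps14, lie near 0 on the horizontal axis and below -0.5 on the vertical one.

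On chromosome 6, 6 members lie with Htra2. The number of protein-coding genes between them and Htra2 was 8 for Mrpl19, 46 for Mrpl35, 149 for Mrps25, 312 for Mrps33, 381 for Mrpl51 and 604 for Mrps35. Mrpl35 was the 1 of the 6 with a called probe set. At the brightest probe set, Mrps25 gave -0.35 ± 0.08 (adjusted p = 0.0704), Mrpl51 0.05 ± 0.07 (adjusted p = 0.779), and Mrpl35 0.0033 ± 0.07 (adjusted p = 0.989). Mrpl19 gave -0.018 ± 0.11 (adjusted p = 0.958), Mrps33 0.026 ± 0.08 (adjusted p = 0.915) and Mrps35 0.056 ± 0.07 (adjusted p = 0.764). The lowest of all probe sets was -0.57 for Mrps25, -0.51 for Mrpl35, -0.40 for Mrpl51 and -0.19 for Mrpl19.

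The family was next set beside other parts of protein synthesis and of the mitochondrion, with medians taken over each gene's brightest probe set. Genes of the cytosolic ribosome shifted further upward: 42 of 46 were above 0, with a median of 0.20, and 3 probe sets of 2 genes were called higher. These calls are 2.97% of the list's probe sets and 4.35% of its genes, near the background of 3.14% for bright probe sets and 3.3% for genes. Their median deviation on the knockout arrays was 0.22, 0.14 and 0.25. Of 4 mitochondrial ribosome proteins with other symbols, Gadd45gip1 (mL64) rose by 0.44 ± 0.08 (adjusted p = 0.0435), from 9.02, 8.96 and 9.13 to 9.46, 9.40 and 9.58. Its second probe set gave -0.14 ± 0.13. Dap3 and Chchd1, both of the small subunit, gave 0.20 ± 0.07 (adjusted p = 0.206) and 0.22 ± 0.10 (adjusted p = 0.292), and Ptcd3 gave -0.11 ± 0.08 (adjusted p = 0.567).

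Lists of the factors that build and serve the mitochondrial ribosome held no call. For 26 assembly factors the median was 0.08, and limma called 0 probe sets, with 9 at an unadjusted p under 0.05. Gtpbp10, a GTPase of large subunit assembly, gave 0.36 ± 0.08 (adjusted p = 0.0727), and Fastkd5, which acts on mitochondrial RNA, gave -0.34 ± 0.08 (adjusted p = 0.0774). For 17 translation factors the median was 0.0067, with 0 called and 11 at an unadjusted p under 0.05. C1qbp gave 0.32 ± 0.08 at its brightest probe set (adjusted p = 0.0843) and 0.39 ± 0.09 at the other (adjusted p = 0.0722). Tufm, the elongation factor that brings tRNA to the ribosome, gave -0.30 ± 0.08 at its brightest (adjusted p = 0.103) and -0.34 ± 0.08 at another (adjusted p = 0.0731). For 16 mitochondrial tRNA synthetases the median was 0.058, with 0 called and 2 at an unadjusted p under 0.05. The genes with the smallest p were Hars2, at -0.20 ± 0.08 (adjusted p = 0.258) on its brightest probe set and -0.29 ± 0.10 (adjusted p = 0.184) on the other, and Tars2, at 0.17 ± 0.08 (adjusted p = 0.356) on its brightest. For 22 genes of other mitochondrial parts the median was 0.029, with 0 called and 2 at an unadjusted p under 0.05. Tomm20, an import receptor, gave 0.37 ± 0.10 at the highest of its 6 probe sets (adjusted p = 0.123) and 0.034 ± 0.09 at its brightest. Slc25a4, the ADP/ATP carrier, gave -0.23 ± 0.07 at a dimmer probe set (adjusted p = 0.136) and 0.089 ± 0.07 at its brightest. The differences between these lists were not tested.

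**Figure D4:**
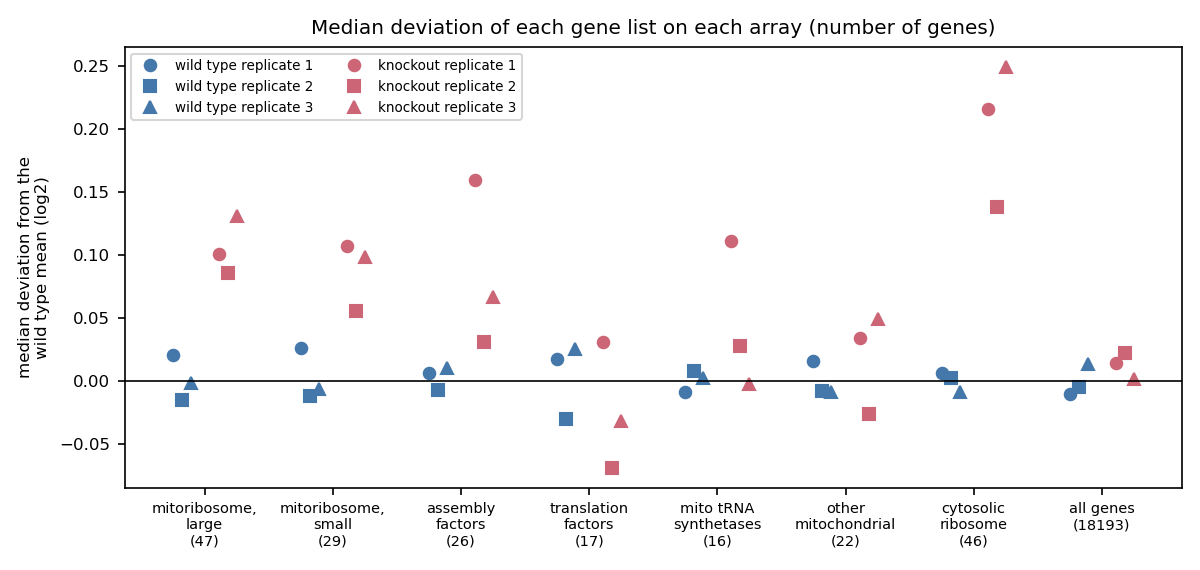
Median deviation from the wild type mean (log2, vertical axis) of each gene list on each array, wild type in blue and knockout in red, with the number of genes under each list. The knockout arrays lie above the wild type arrays for both subunits of the mitochondrial ribosome, for assembly factors (0.03 to 0.16) and for the cytosolic ribosome (0.14 to 0.25), while they overlap for translation factors, tRNA synthetases, other mitochondrial genes and all genes.

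Some features of the start regions, which the symbol rule did not use, were more frequent in members than in protein-coding genes. Each motif searched was nevertheless absent from most members. Promoter windows were held by RefSeq's table for 67 of the 76 genes, and the first window of each was searched on both strands. The ETS core CCGGAAG, the site family of NRF-2, was found in 24 of 67 (35.8%), beside 11.9% of 17491 protein-coding genes and 8.86% of all 32851 windows. The NRF1 motif, GCGC, any 2 bases and GCGC again, was found in 13 (19.4%), beside 8.8% and 6.23%. The YY1 motif AAGATGGC was found in 12 (17.9%), beside 3.22% and 2.75%. Nuclear respiratory factors and YY1 are known regulators of nuclear genes for mitochondria. A TATA box, TATAAA, was found in 4 (5.97%), beside 13.3% and 13.6%, and the box CCAAT in 26 (38.8%), beside 39% and 37.4%. The cAMP response element TGACGTCA was found in 2 (2.99%), beside 2.34% and 1.79%. The composite CHOP-ATF4 motif TGATGNAA of stress-responsive genes was found in 0 of 67, beside 3.69% and 3.97%. By subunit, the ETS core was in 13 of 41 large and 11 of 26 small subunit genes, NRF1 in 10 and 3, and YY1 in 6 and 6. Overlaps between motifs were not removed. The windows were also richer in CpG, with a median of 21 per window beside 13 for protein-coding genes, and a GC content of 58.3% beside 56.3%. A match is a description of the letters and not of a bound site.

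Many members start back to back with another gene. A gene on the opposite strand began within 1000 bases of the start of 23 of the 67 (34.3%), beside 8.04% of protein-coding genes. All 23 partners were measured, and 12 had a fold change of the same sign as the member. Mrpl46 and Mrps11, of different subunits, face each other 42 bases apart and gave 0.18 ± 0.07 and 0.05 ± 0.08, neither past the test. Of the partners, 1 was called: Pnpla7, 935 bases from Mrpl41, rose by 0.57 ± 0.10 (adjusted p = 0.0389), while Mrpl41 gave 0.14 ± 0.12 (adjusted p = 0.635). Next to the called members, Klc4, 141 bases from Mrpl2, gave 0.037 ± 0.09 (adjusted p = 0.885), and Ppp1r10, 756 bases from Mrps18b, gave -0.15 ± 0.11 (adjusted p = 0.548). The neighbours of Mrpl2 and Mrps18b thus did not pass where the members did.

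**Figure D5:**
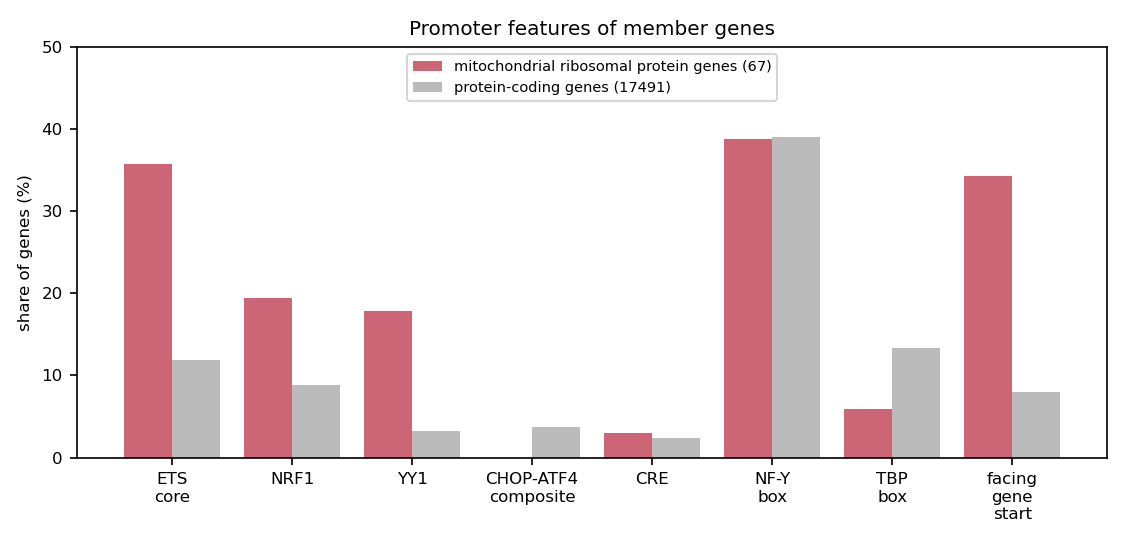
Share of genes (%, vertical axis) whose start window holds each motif, or that have a gene start on the opposite strand within 1000 bases (facing gene start), for 67 mitochondrial ribosomal protein genes (red) and 17491 protein-coding genes (grey). NF-Y box stands for CCAAT and TBP box for the TATA box. The ETS core (35.8% against 11.9%), NRF1, YY1 and facing starts (34.3% against 8.04%) are more frequent in the red bars.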

How the data were processed

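Total cortex RNA of 6 samples, 3 per genotype, was hybridised to 1 Affymetrix array each, per the labels. The deposited log2 values are probe set levels that the authors made with RMA, per the submitters' processing notes, with no version named. Base 2 was read from the range of the values, since the labels name no base. RMA gives all arrays nearly equal distributions, which hides any change common to most genes, and arrays give no counts, so their number limits the precision.

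After removal of 64 control probe sets, 45037 were tested. The platform annotation gave 34945 of them 1 gene symbol, 932 several and 9160 none, and only the first were named. The genotypes were compared with limma 3.58.1 in R 4.3.3 (lmFit and eBayes, two-sided, genotype as the only term, Benjamini-Hochberg adjustment over the 45037). The fit was tested on simulated data. Groups of genes were read at the probe set with the highest mean and described by counts and medians, without a test. Tables and figures were made in Python 3.11.15 with pandas 2.3.3 and matplotlib 3.10.9.

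Named were all called members, for each subunit the 5 further members with the smallest p in each direction, split genes with an unadjusted p under 0.05, members on the chromosome of Htra2, Mrps30 and Mrps18a, and of each pathway list its called genes or else 2. The members, lists and alternatives were chosen with earlier results of these data known. Alternatives were other normalizations, array weights, robust moderation, a brightness filter, the Y-linked covariate, a replicate block, other thresholds, other gene summaries and leaving out arrays.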

Additional observations from a re-analysis of the deposited data

How the results depend on the processing

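The count of 6 called member probe sets (4 higher, 2 lower) depended on the processing, and the cause was not tested. It was 28 with array weights, 18 with dim probe sets left out, 17 with limma-trend and robust moderation, 16 at an adjusted p under 0.10 and 11 after quantile normalization. It was 3 with the Y-linked covariate, 1 with both replicates numbered 2 left out, and 0 to 18 with single arrays left out. Median centring gave 5 and 1 probe set per gene 7. Calls over the whole series moved as well, from 796 to 4205 with array weights and 1757 with dim probe sets left out. They were 1770 with limma-trend and robust moderation, 2035 at an adjusted p under 0.10 and 1081 after quantile normalization. With the Y-linked covariate they were 441, with both replicates numbered 2 left out 314, with median centring 681 and with 1 probe set per gene 758.

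With the replicate number as a block, limma called 0 member probe sets, with 38 at an unadjusted p under 0.05 and 154 called in the series. The labels do not say whether the numbers pair the samples. Same-numbered arrays deviated from their genotype means with correlations of -0.196, -0.0405 and -0.169, and differently numbered ones with -0.0558 to 0.221. These correlations cannot decide the pairing, because deviations from a genotype's own mean are not independent.

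The large subunit median stayed between 0.10 and 0.12 over single omissions and was 0.082 with each gene as the mean of its probe sets. The small subunit median was 0.062 to 0.10 over single omissions and 0.056 with Mrps30 and Mrps18a moved. Large minus small was 0.0082 to 0.049 over single omissions, 0.065 with those genes moved, -0.0023 with both replicates numbered 2 left out and -0.017 with the mean of probe sets. Over 478 comparisons of 31 named probe sets, 381 kept direction and side of the threshold, 43 lost and 51 gained the call, and 3 changed sign, all of Mrps33: -0.0098 with array weights, -0.028 with both replicates 2 left out and -0.023 without knockout replicate 2 (-0.023 to 0.0765 over single omissions). The 6 called ones kept the call in 50 of 93.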

Other observations

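The following counts by chromosome were chosen after the values were seen. Chromosome 17 held 8 members, of which 3 were called (Mrpl2, Mrps10 and Mrps18b) and 7 were above 0, with a median of 0.20. On that chromosome 18 of 834 measured genes were called, 2.16%. Chromosome 11 held the most members, 11, all above 0 with a median of 0.14, and limma called 0 of them.

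Some probe sets named a member together with another gene and entered no count. The brighter of 2 shared by Mrpl30 and Gm6238 read 10.99, 10.85 and 10.92 in wild type and 11.20, 11.09 and 11.27 in knockout, 0.27 ± 0.08 (adjusted p = 0.139), with no overlap. The other gave -0.05 ± 0.07 (adjusted p = 0.768). The probe set shared by Mrpl53 and Ccdc142 gave -0.05 ± 0.07 (adjusted p = 0.809), and that shared by Mrps34 and Nme3 gave -0.04 ± 0.07 (adjusted p = 0.812).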
